A study of Mus musculus with 6 samples.

Results

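The genes of the cytosolic and mitochondrial heat shock proteins were followed in cultured mouse spermatogonial stem cells that received captopril or water. The set holds 10 genes, taken as the array probes whose RefSeq transcript accession belongs to Hspa1a, Hspa1b, Hspa8, Hsp90aa1, Hsp90ab1, Hsph1, Dnajb1, Hspb1, Hspd1 or Hspe1. On the arrays 9 of the 10 genes had a probe, with 14 probes in all among 55681, and all 9 entered the comparison of 14860 named genes. Hspa1b, the near-identical neighbour of Hspa1a, had no probe under its own accession and has no value here. Both groups were germline stem cells from dissociated testis that had been passaged onto mouse embryonic fibroblast feeders. One group received 0.01 M captopril, an inhibitor of angiotensin-converting enzyme, for 24 h, and the other received sterile water, to which the labels also attach 0.01 M. Each group has 3 single-colour Agilent arrays, numbered 2, 3 and 4 and the labels call the 3 cell samples of a group independent. They name no separate animals, so p-values measure the spread between these arrays. The strain and age of the mice are not given in the sources used here, and no step that removed feeder cells before RNA extraction is described in them. In such bulk samples fewer cells of a type and less RNA per cell cannot be told apart.

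Heat shock proteins are chaperones that bind unfolded or newly made proteins and help them reach or regain their fold. Hspa1a and Hspa1b are the strongly stress-inducible HSP70 proteins of the cytosol, Hspa8 is their constitutive relative, Dnajb1 is a J protein that drives their ATP cycle, and Hsph1 exchanges their nucleotide. Hsp90aa1 and Hsp90ab1 are the inducible and the constitutive cytosolic HSP90, which hold kinases and hormone receptors in a state ready for activation. Hspb1 is a small heat shock protein that holds unfolding proteins without ATP, and Hspd1 with its lid Hspe1 forms the folding chamber of the mitochondrial matrix. Heat shock factor 1 switches on most of these genes under proteotoxic stress by binding arrays of the unit GAA and its reverse complement, so their transcripts are a common readout of such stress.

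The promoters of the heat shock genes are shown because heat shock factor binding is the known switch of this set, and because 2 pairs of members share promoter sequence. RefSeq windows of GRCm38.p6 matched 7 of the 10 genes, with 10 windows. For Hspa1a, Hspa1b, Hspb1 and 1 of the starts of Hsph1 the 250 bases before the start are given, and for Hspd1 and Hspe1 the stretch between their starts. The windows of Dnajb1, another window of Hsph1 and another of Hspd1 are not shown. Letters run from 5′ to 3′ in lower case, with every pair of facing units, GAANNTTC or TTCNNGAA, in capitals. Each of these 2 motifs reads the same on both strands.

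Hspa1a, chr17:34972157-34972406, minus strand: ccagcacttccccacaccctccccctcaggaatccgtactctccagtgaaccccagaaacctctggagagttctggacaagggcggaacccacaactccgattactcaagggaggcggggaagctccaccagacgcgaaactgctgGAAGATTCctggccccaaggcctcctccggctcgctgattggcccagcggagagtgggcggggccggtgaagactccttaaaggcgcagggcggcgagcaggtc
Hspa1b, chr17:34959239-34959488, minus strand: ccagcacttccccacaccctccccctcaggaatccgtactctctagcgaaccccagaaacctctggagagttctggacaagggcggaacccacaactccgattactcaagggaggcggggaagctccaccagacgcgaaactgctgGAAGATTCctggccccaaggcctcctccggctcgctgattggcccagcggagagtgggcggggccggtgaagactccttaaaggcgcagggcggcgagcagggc
Hspb1, chr5:135887669-135887918, plus strand: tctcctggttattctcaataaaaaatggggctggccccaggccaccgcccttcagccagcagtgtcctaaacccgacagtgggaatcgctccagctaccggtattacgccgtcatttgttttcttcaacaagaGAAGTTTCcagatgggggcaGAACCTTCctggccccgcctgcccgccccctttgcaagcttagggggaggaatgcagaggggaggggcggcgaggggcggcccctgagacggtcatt
Hsph1, 1 of its 2 windows, chr5:149636337-149636586, minus strand: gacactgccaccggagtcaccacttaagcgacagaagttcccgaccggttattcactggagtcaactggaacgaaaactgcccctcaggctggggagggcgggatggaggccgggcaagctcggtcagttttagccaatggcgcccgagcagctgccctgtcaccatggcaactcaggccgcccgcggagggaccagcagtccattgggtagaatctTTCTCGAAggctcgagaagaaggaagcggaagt
Hspd1 and Hspe1, the 215 bases between their starts, chr1:55087933-55088147, plus strand: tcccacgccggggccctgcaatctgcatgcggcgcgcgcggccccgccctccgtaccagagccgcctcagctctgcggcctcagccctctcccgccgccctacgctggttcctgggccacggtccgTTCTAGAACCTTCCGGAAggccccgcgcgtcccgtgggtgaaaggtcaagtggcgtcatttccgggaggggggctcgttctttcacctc

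Counted from the 5′ end, the Hspa1a and Hspa1b windows differ at 3 of 250 bases, C44T, T47C and T249G with the Hspa1a base first, so 98.8% of the bases are identical. Hspd1 is read leftward and Hspe1 rightward from the shared stretch, which holds 3 overlapping pairs set in a row of facing units. A pair of facing units lay in 7 of the 10 windows, against 12.8% of all 32851 windows. These 7 belong to Hspa1a, Hspa1b, Hspb1, Hsph1, Hspd1 and Hspe1. Among them the windows of Hspd1 and Hspe1 hold the same bases, and the 2 of Hsph1 overlap and hold the same pair. A row of 3 units, either pair followed by NN and a further unit facing the one before it, lay in the windows of Hspd1 and Hspe1 alone among these genes, through the same bases, and in 0.466% of all windows. The 2 windows of Dnajb1 held no pair of facing units. A CCAAT box (CCAAT or ATTGG) lay in 1 of them and in the windows of Hspa1a, Hspa1b and Hsph1, which makes 5 of the 10 windows, against 33.8% of all windows. The 2 windows of Hsph1 hold the same boxes. A match describes these letters and was not tested as a binding site.

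No heat shock gene passed the test for a difference between captopril and water. Over all 6 arrays the adjusted p missed the threshold for every member (limma with Benjamini-Hochberg adjustment over all genes, member adjusted p from 0.675 to 0.998), and at an unadjusted p under 0.05 there were 0 members as well. Of all 14860 genes 0% were called and 8.24% had an unadjusted p under 0.05. Fold changes are captopril minus water. The 9 members had a median log2 fold change of −0.0025, with 4 positive and 5 negative values, and that of all genes was −0.033. In 0 of the 9 genes did the captopril and water arrays stand apart without overlap, against 21.5% of all genes. For 7 of the 9 the 95% interval ended below a 2-fold rise, the exceptions being Hspa1a and Hsp90aa1.

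Levels are log2 of the processed signal with the 75th percentile of its array set to 0, and a probe's level is compared only with itself on other arrays. Water replicate 3 stood apart from the other arrays, with correlations of 0.878 to 0.893 with them over 32380 probes, where the other 5 correlated at 0.97 to 0.991. On this array 3033 probes (9.37%) lay more than 2 log2 units below every other array, while on each of the other arrays 0 to 41 probes did. The 75th percentile of the signal was 1875 on water replicate 3 and 1885 on captopril replicate 4, and 2780 to 3424 on the rest. The germ cell marker Ddx4 and the regulator Zbtb16 were measured on all arrays at 1.71 to 3.43 and 2.54 to 3.11, and Gfra1, at −4.88 to −0.96, was not well above background on 1 of the 6 arrays. Of the 12 germ cell markers 6 were positive and 6 negative, with and without water replicate 3, and 0 were called. Sall4 had an unadjusted p under 0.05 in both fits (log2 fold change 0.89 and 0.51, SE 0.37 and 0.21). Without that array Bcl6b had one too (0.64, SE 0.18). Of all genes 492 and, without that array, 1799 had such a p and were higher. Over 6 arrays Ddx4 and Nanos2 had all captopril arrays below all water arrays, as had 11.4% of all genes, and Sall4 above, as had 10%. Markers of the fibroblast feeders were measured as well, with Col1a1 at 4.27 to 5.60 and all 12 markers of the list above background on at least 3 arrays, as were 5 of 6 macrophage, 3 of 8 Sertoli and 1 of 6 Leydig markers. Of the macrophage markers Ptprc had an unadjusted p under 0.05 in both fits (log2 fold change 1.21 and 0.70, SE 0.45 and 0.21) and Lyz2 without water replicate 3 (−0.72, SE 0.30), and 0 were called. The fibroblast list stood at 0.81 on water replicate 3, relative to each gene's own median, and between −0.22 and 0.031 on the other arrays. By the same measure all 14860 genes stood at 0.36 on water replicate 3, the germ cell list at 0.51 and the macrophage list at −0.28. The 3 measured Sertoli markers stood at 0.93 there and the 1 measured Leydig marker at 1.14, both above the fibroblast list. The median log2 fold change of the fibroblast list was −0.44 over 6 arrays and −0.12 without water replicate 3, with 0 genes called. Its genes lay on both sides of water. Col3a1, Pdgfrb, Postn and Lum, 4 of 12, had an unadjusted p under 0.05 and all captopril arrays below all water arrays, with and without water replicate 3. Of all 14860 genes 732 and, without that array, 1040 had such a p and were lower. All captopril arrays lay below all water arrays in 11.4% of all genes, and in 15.7% without that array. Another 4, Twist1, Thy1, Col1a2 and Pdgfra, had all captopril arrays above water replicates 2 and 4, as had 27.2% of all genes. For Col3a1 the log2 fold change was −0.87 (SE 0.25) and −0.66 (SE 0.15). Sall4, Bcl6b, Nanos2 and these fibroblast and macrophage genes are named after their values were seen. The part of any of these cell types in the results on the heat shock genes was not tested. Slide row 1 held water replicates 2 and 3 and slide row 2 the other 4 arrays. Within row 2, or with the row as a block, the member median was 0.27 and that of all genes 0.11, with Hspa1a at −0.40 and the other 8 members positive. Each member is therefore also given without water replicate 3, which leaves 2 water and 3 captopril arrays.

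**Figure D1:**
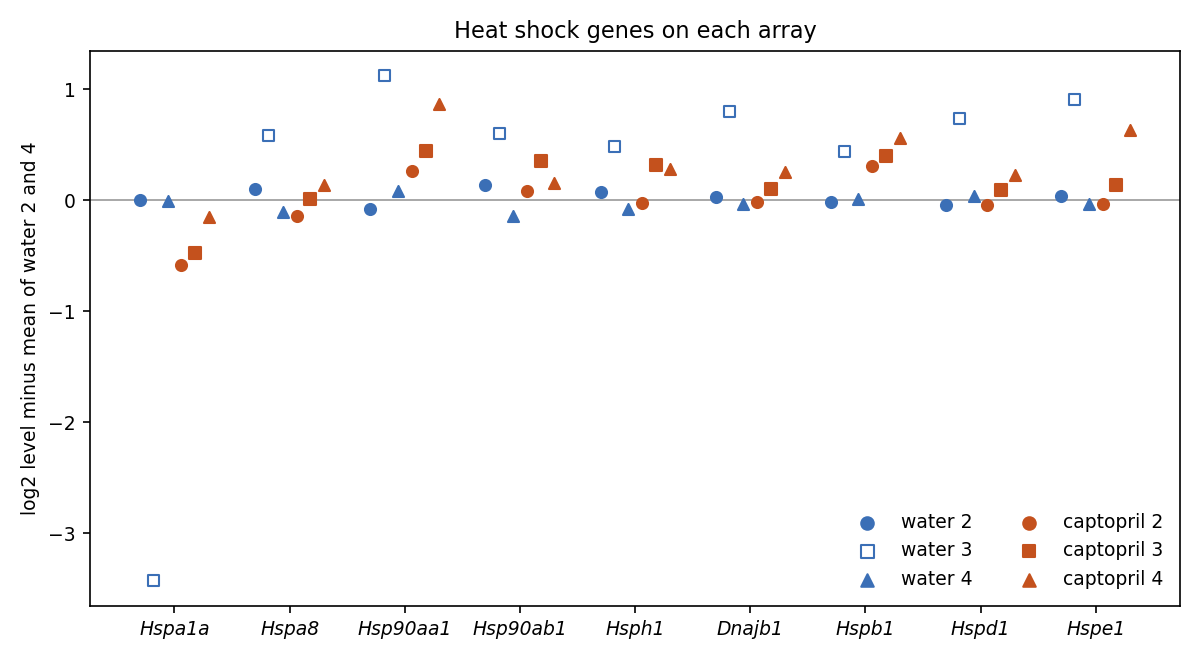
Log2 level of the 9 measured heat shock genes on each of the 6 arrays, minus the mean of water replicates 2 and 4 of the same gene. Blue marks are water and orange marks captopril, with a shape for each replicate number, and the open square is water replicate 3. That array is the highest of the 6 for 7 genes and lies far below the rest for Hspa1a. Relative to each gene's own median, the 9 genes had a median of 0.52 on that array and all 14860 genes one of 0.36.

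With water replicate 3 left out, 8 of the 9 members had a higher mean with captopril and Hspa1a a lower one, in a fit where 8700 of all 14860 genes were positive, against 6946 over 6 arrays. Their median log2 fold change was 0.19, and that of all genes was 0.070. No member passed the test (limma, adjusted p from 0.202 to 0.986), while 0.619% of all genes did. Hspb1 and Hsp90aa1 had an unadjusted p under 0.05 and were higher with captopril, 2 of 9 members against 12.1% of all genes. The same pair had all captopril arrays above both water arrays, as had 27.2% of all genes, and Hspa1a had all of them below, as had 15.7%, so that 3 of 9 members stood apart in either direction against 42.9% of all genes. With quantile normalization of these 5 arrays the member median was 0.0043 and that of all genes 0.0014. With the median of each array subtracted the member median was 0.058 and that of all genes −0.062. Hspb1, Hsp90aa1, Hspa1a, Hsph1 and Hspe1 kept their signs under both scalings. Hspa8 turned negative under both and with normexp correction, Dnajb1 under both, Hsp90ab1 with quantiles and Hspd1 with the array median.

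**Figure D2:**
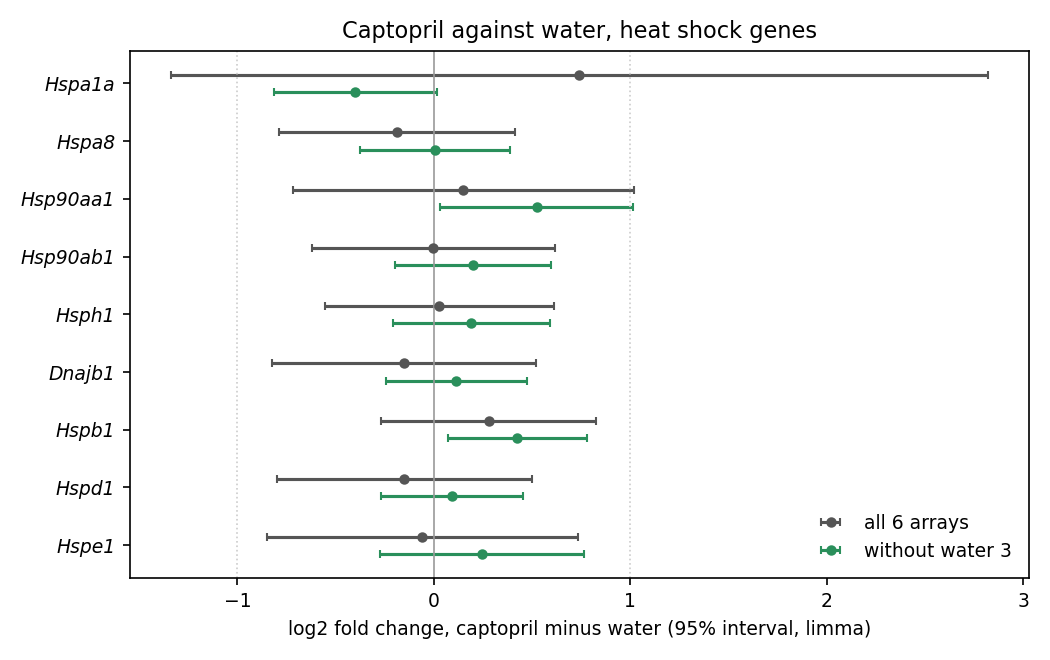
Captopril minus water, as log2 fold change, for the 9 heat shock genes with its 95% interval from limma, over all 6 arrays in grey and without water replicate 3 in green. Dotted lines mark 2-fold changes. The interval of Hspa1a spans −1.34 to 2.82 over 6 arrays and −0.81 to 0.015 without that array.

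Hspa1a, the inducible HSP70, rested on a single probe and had the widest range of the set over 6 arrays, through water replicate 3. Over the other 5 arrays the range of Hsp90aa1 was wider. It read 0.55, −2.88 and 0.54 on water replicates 2, 3 and 4 and −0.035, 0.074 and 0.40 on captopril replicates 2, 3 and 4. Water replicates 2 and 4 were nearly equal and lay above all captopril arrays, and water replicate 3 lay −3.27 log2 units from the median of the other 5. The mean was −0.60 ± 1.98 (SD, n = 3) in water and 0.15 ± 0.22 (SD, n = 3) with captopril. The log2 fold change was 0.74 (SE 0.88, limma adjusted p = 0.774), and −0.40 (SE 0.17, adjusted p = 0.274) without water replicate 3. A single array thus sets the sign, and neither value passed the test. Whether this probe also takes up RNA of Hspa1b was not tested.

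The constitutive HSP70, Hspa8, was measured by 3 probes that behaved alike except on water replicate 3. The probe that stands for the gene, A_55_P2069721, read 5.03, 5.51 and 4.83 on water replicates 2, 3 and 4 and 4.79, 4.95 and 5.07 on captopril replicates 2, 3 and 4. Water replicate 3 was its highest array, and the captopril arrays lay within the range of the water arrays but for replicate 2, which was slightly below it. Probe A_55_P2080603 gave 4.60, 5.03 and 4.39 on water replicates 2, 3 and 4 and 4.46, 4.58 and 4.95 on captopril replicates 2, 3 and 4. Probe A_52_P12877 gave 3.95, −3.36 and 3.59 on water replicates 2, 3 and 4 and 3.76, 3.90 and 3.85 on captopril replicates 2, 3 and 4. On water replicate 3 this probe stood −7.21 log2 units from the median of the other 5 arrays, where the other 2 probes of the same gene stood at 0.56 and 0.45. The log2 fold changes of the 3 probes over 6 arrays were −0.19, −0.0097 and 2.44, the last with an SE of 1.86, and without water replicate 3 they were 0.0061, 0.17 and 0.062 (SE 0.17, 0.20 and 0.17). None of these passed limma's test over 32380 probes, of which 0% were called over 6 arrays and 0.281% over 5. At an unadjusted p under 0.05 these shares were 8.85% and 19.9%, and 0 of the 3 probes reached it in either fit. For the gene, the 95% interval without that array ran from −0.37 to 0.39.

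Dnajb1, the J protein partner of HSP70, read 3.62, 4.39 and 3.56 on water replicates 2, 3 and 4 and 3.58, 3.69 and 3.84 on captopril replicates 2, 3 and 4. Apart from a high water replicate 3 its arrays spanned less than 0.3 log2 units, and the groups overlapped. The log2 fold change was −0.15 (SE 0.29), and 0.12 (SE 0.15) without that array. Hsph1, the HSP110 exchange factor, had 2 probes. The brighter, A_55_P2176963, read 1.96, 2.37 and 1.80 on water replicates 2, 3 and 4 and 1.85, 2.19 and 2.16 on captopril replicates 2, 3 and 4, with water replicate 3 highest. The dimmer, A_55_P2003513, read 0.50, −0.84 and 0.25 on water replicates 2, 3 and 4 and 0.19, 0.36 and 0.13 on captopril replicates 2, 3 and 4, with water replicate 3 lowest. The gene's log2 fold change was 0.028 (SE 0.25) over 6 arrays. Without water replicate 3 the probes gave 0.19 and −0.15, each with an SE close to its own size (SE 0.18 and 0.17), so that the direction of Hsph1 was not resolved.

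**Figure D3:**
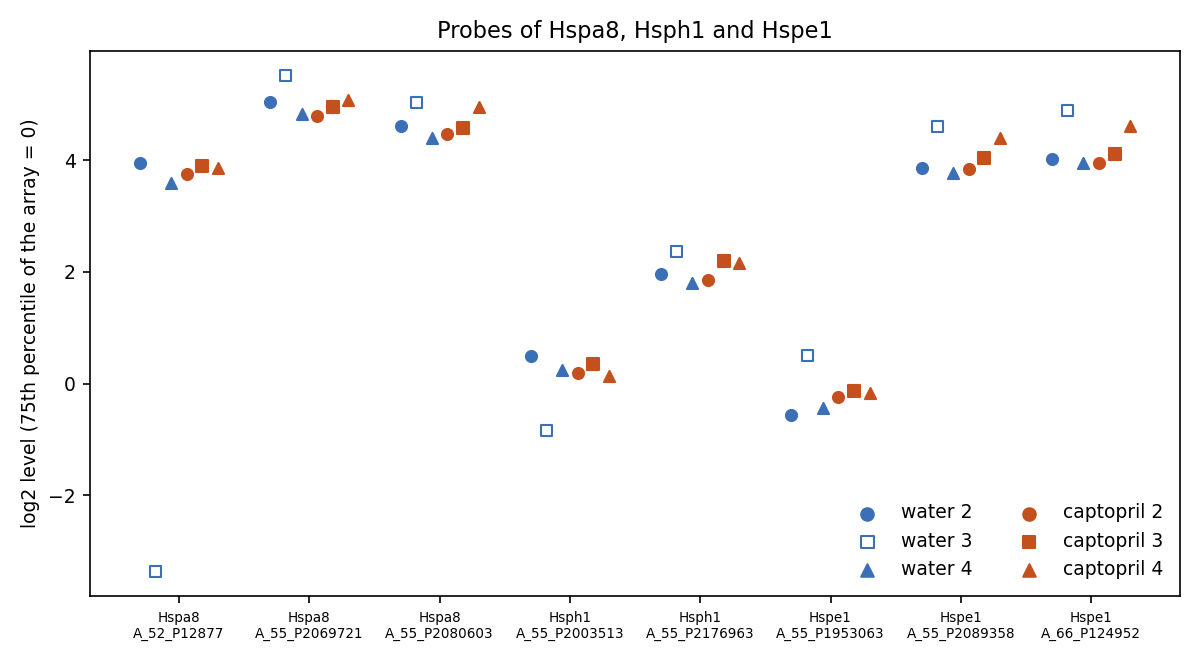
Log2 level (75th percentile of the array set to 0) of each of the 8 probes of Hspa8, Hsph1 and Hspe1 on the 6 arrays, with blue for water, orange for captopril and an open square for water replicate 3. The open square lies above the other marks for 6 probes and below them for probe A_52_P12877 of Hspa8, at −3.36, and probe A_55_P2003513 of Hsph1, at −0.84.

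Neither cytosolic HSP90 gene passed the test. Hsp90aa1, the inducible form, read 3.82, 5.02 and 3.98 on water replicates 2, 3 and 4 and 4.16, 4.34 and 4.76 on captopril replicates 2, 3 and 4. All 3 captopril arrays lay above water replicates 2 and 4 and below water replicate 3. The mean was 3.90 ± 0.11 (SD, n = 2) on water replicates 2 and 4 and 4.42 ± 0.31 (SD, n = 3) with captopril. Over these 5 arrays this gave a log2 fold change of 0.52, or 1.44-fold (SE 0.21, 95% interval 0.032 to 1.02, limma adjusted p = 0.24). Over 6 arrays it was 0.15 (SE 0.37, adjusted p = 0.906). Captopril replicate 4, which has the lowest 75th percentile among the captopril arrays, was the highest of them for Hsp90aa1 and for 7 of the 9 members. The median of all genes, each relative to its own median, was also highest there among the captopril arrays, at 0.087. With quantile normalization of the 5 arrays the value for Hsp90aa1 was 0.37. Hsp90ab1, the constitutive form, read 5.13, 5.60 and 4.85 on water replicates 2, 3 and 4 and 5.08, 5.35 and 5.15 on captopril replicates 2, 3 and 4, and its groups overlapped. Its log2 fold change was −0.0025 (SE 0.26), and 0.20 (SE 0.17) without water replicate 3. Whether the 2 HSP90 genes differ in their response was not tested.

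Hspb1, the small heat shock protein, had the smallest p of the set. It read 2.08, 2.54 and 2.11 on water replicates 2, 3 and 4 and 2.41, 2.50 and 2.66 on captopril replicates 2, 3 and 4. Water replicates 2 and 4 were close together and below all captopril arrays, and water replicate 3 lay among the captopril arrays. The mean was 2.10 ± 0.022 (SD, n = 2) on water replicates 2 and 4 and 2.52 ± 0.13 (SD, n = 3) with captopril. Over these 5 arrays the log2 fold change was 0.42, or 1.34-fold (SE 0.15, limma adjusted p = 0.202). With all water arrays it was 0.28 (SE 0.23, adjusted p = 0.675). It was the single member that kept a positive sign whichever array was left out, from 0.20 to 0.42. With the median of each array subtracted over 6 arrays it was −0.023, a scaling that put the median of all genes at −0.33.

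The mitochondrial pair Hspd1 and Hspe1, which share the promoter stretch above, showed no change that passed the test. Hspd1, the chaperonin ring, read 3.12, 3.90 and 3.21 on water replicates 2, 3 and 4 and 3.13, 3.26 and 3.40 on captopril replicates 2, 3 and 4. Hspe1, its lid, read 4.01, 4.89 and 3.94 on water replicates 2, 3 and 4 and 3.94, 4.11 and 4.61 on captopril replicates 2, 3 and 4 by the probe that stands for it. In both genes water replicate 3 was the highest array, water replicates 2 and 4 and captopril replicate 2 lay close together, and captopril replicate 4 was the highest captopril array. The log2 fold change was −0.15 (SE 0.28) for Hspd1 and −0.058 (SE 0.34) for Hspe1. Without water replicate 3 these were 0.094 (SE 0.15) and 0.24 (SE 0.22). The other 2 probes of Hspe1 gave 0.33 (SE 0.15) and 0.28 (SE 0.20) in that fit, so that the fold changes of its 3 probes lay close together. Centred on their own means, the profiles of Hspd1 and Hspe1 differed by a root mean square of 0.15 log2 units over 6 arrays. The closest pair of the set was Dnajb1 with Hspd1, at 0.048, and the farthest was Hspa1a with Hsp90aa1, at 1.54. Without water replicate 3 these 3 distances were 0.17, 0.048 and 0.46. All pairs share the same arrays.

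Hspa1a and Hsp90aa1 had the widest ranges over the 6 arrays, 3.43 and 1.20 log2 units. Among genes outside the set, the profile most like that of Hspa1a was that of Sinhcaf (root mean square difference 0.088 log2 units over 6 arrays), followed by Atoh7 (0.11) and Gm8096 (0.14). All 3 had their lowest level on water replicate 3, as Hspa1a had, which follows from the choice by profile. Among the genes most like Hsp90aa1 were the ribosomal protein gene Rps18 (0.056) and Dusp7 (0.058). Like Hsp90aa1, to which they were matched, both were highest on water replicate 3 and next on captopril replicate 4.

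The wider chaperone network showed no called gene either. Of 88 further genes in 8 lists 86 were measured, and 0 passed limma's test over all genes with or without water replicate 3. At an unadjusted p under 0.05 there were 2 over 6 arrays, Hspa2 and Clpx, both lower with captopril, or 2 of 86 against 732 of all 14860 genes. In the fit of 5 arrays there were 4, with Dnajb6, Hspb7 and Cryab higher and Hspa2 lower, or 3 and 1 of 86 against 12.1% and 7% of all genes. The median log2 fold change of the 86 was 0.0038 and, without that array, 0.072, beside −0.033 and 0.070 for all genes. The medians of the 8 lists without water replicate 3 lay between −0.042 for the heat shock factors and 0.28 for the CCT chaperonin, which folds actin and tubulin, with its prefoldin partners.

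**Figure D4:**
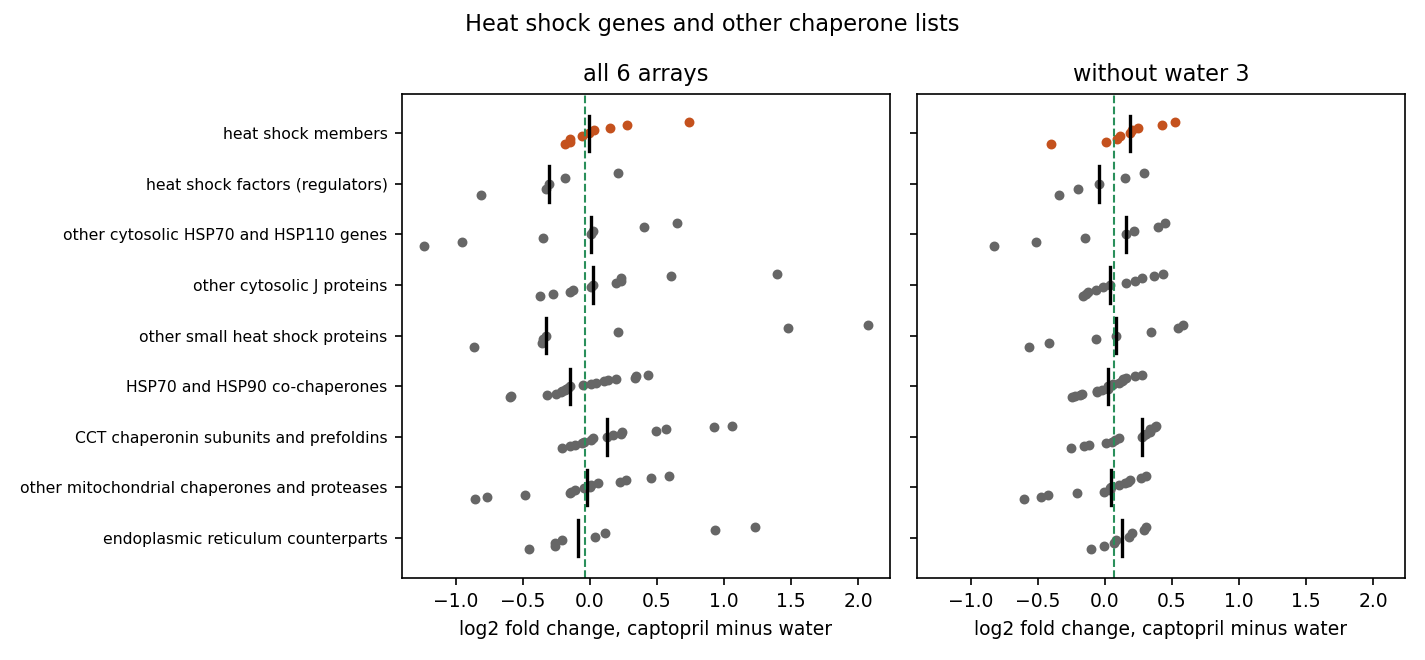
Captopril minus water, as log2 fold change, for each gene in the heat shock set (orange) and in 8 other chaperone lists (grey), over all 6 arrays on the left and without water replicate 3 on the right. A black bar is the list's median and the dashed green line the median of all 14860 genes, −0.033 on the left and 0.070 on the right. The heat shock set has its median at −0.0025 and 0.19.

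The transcription factor Hsf1, the regulator of the heat shock genes, read 0.88, 1.62 and 0.80 on water replicates 2, 3 and 4 and 0.54, 0.78 and 1.07 on captopril replicates 2, 3 and 4, with overlapping groups and a log2 fold change of −0.30 (SE 0.30). Hsf2 stood at −0.81 (SE 0.52) and Hsbp1, which binds Hsf1, at −0.33 (SE 0.23). In the fit of 5 arrays the values of Hsf1, Hsf2 and Hsbp1 were −0.042, −0.34 and −0.20. Of the 5 genes in this list 2 were positive and 3 negative in that fit. These are transcript levels, and the activity of Hsf1 was not measured.

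Among the other HSP70 and HSP110 genes, Hspa2 had the smallest p. It encodes the HSP70 of meiotic germ cells and read 1.18, 2.45 and 1.26 on water replicates 2, 3 and 4 and 0.32, 0.88 and 0.0012 on captopril replicates 2, 3 and 4, with all captopril arrays below all water arrays. Such a separation was found below water in 11.4% of all genes. Its log2 fold change was −1.23 (SE 0.41, limma adjusted p = 0.587) and −0.82 (SE 0.26, adjusted p = 0.169) without water replicate 3. Of the 8 spermatocyte and spermatid markers, which include Hspa2, 3 were measured, and the list stood at −0.10, 0.58 and 0.23 on the water arrays and −0.21, 0.10 and −0.72 on the captopril arrays. The part of these cells in the result was not tested. Hspa1l and Hspa4l had values of 0.65 and −0.95, and without that array 0.45 and −0.51. For Hspa1l, 2 of the 3 water arrays were above background.

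Of the J proteins Dnajb6, a suppressor of protein aggregation, read 2.33, −0.58 and 2.25 on water replicates 2, 3 and 4 and 2.73, 2.63 and 2.82 on captopril replicates 2, 3 and 4, with all captopril arrays above all water arrays, as in 10% of all genes. Its log2 fold change was 1.39 (SE 0.74), and 0.44 (SE 0.14, limma adjusted p = 0.184) without water replicate 3. Dnajb2 and Dnaja2 stood at 0.16 and −0.14 in that fit, and at 0.60 and −0.38 over 6 arrays. Among the small heat shock proteins Hspb7, Hspb8 and Hspb2 had 6-array values of 2.07, 1.47 and −0.86, with SE of 1.13, 0.88 and 0.42. Water replicate 3 carried most of the first pair, at −6.58 for Hspb7, for which 2 of the 3 water arrays were above background, and −3.92 for Hspb8, and without it they stood at 0.58 (SE 0.15) and 0.34 (SE 0.18). Cryab, the close relative of Hspb1, which is named after its values were seen, read 2.71, 3.74 and 2.78 on water replicates 2, 3 and 4 and 3.29, 3.20 and 3.37 on captopril replicates 2, 3 and 4. With that array left out its log2 fold change was 0.54 (SE 0.14, limma adjusted p = 0.124), against 0.21 (SE 0.32) over 6 arrays.

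No co-chaperone of HSP70 and HSP90 was called. In the fit of 5 arrays 12 of the 19 were positive, beside the 8700 of all 14860 genes, with a median of 0.026. Chordc1, an HSP90 partner, stood at −0.59 (SE 0.33) over 6 arrays and −0.24 without that array, Hspbp1 at 0.43 and 0.16, and Stip1, which bridges HSP70 and HSP90, at 0.35 and 0.13. In the CCT and prefoldin list, Vbp1, Pfdn6 and Cct6a had 6-array values of 0.93, 0.49 and 1.06, and 0.31, 0.38 and −0.11 without water replicate 3, where 12 of the 15 genes and 8700 of all 14860 were positive.

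The other mitochondrial chaperones and proteases held 3 genes whose captopril arrays all lay below all water arrays, of 14 measured, against 11.4% of all genes. Clpx, the unfoldase of the matrix protease ClpXP, read 1.75, 2.66 and 1.84 on water replicates 2, 3 and 4 and 1.61, 1.34 and 1.01 on captopril replicates 2, 3 and 4. Dnaja3, a mitochondrial J protein, read 2.57, 3.25 and 2.45 on water replicates 2, 3 and 4 and 2.37, 2.15 and 1.19 on captopril replicates 2, 3 and 4. Yme1l1, a protease of the inner membrane, read −0.55, −0.42 and −0.67 on water replicates 2, 3 and 4 and −0.99, −0.76 and −1.33 on captopril replicates 2, 3 and 4. Captopril replicate 4 was the lowest array for all 3. Their log2 fold changes were −0.76, −0.85 and −0.48 (SE 0.32, 0.38 and 0.24, limma adjusted p = 0.603 to 0.618), and −0.48, −0.61 and −0.42 without water replicate 3 (adjusted p = 0.266 to 0.368). The matrix HSP70 gene Hspa9, a neighbour of Hspd1 in the folding path and named after its values were seen, stood at 0.0023 and 0.18. In the endoplasmic reticulum list Dnajc3, Hyou1 and Dnajb9 stood at 0.93, 1.23 and −0.45 over 6 arrays and at 0.21, 0.18 and 0.082 without that array. For Hyou1, too, 2 of the 3 water arrays were above background.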

How the data were processed

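RNA of 3 captopril and 3 water cultures was measured on single-colour arrays lying on 1 slide, scanned on 1 date per the file headers. The deposited intensity values come from the scanner software Feature Extraction (Agilent), whose version is 11.5.1.1 in the deposited headers and 10.7 in the submitters' processing notes, and which subtracts background within an array. The authors' deposited log2 table differed from log2 of these signals by a constant per array (100% of values within 0.01) and served as an alternative. The 75th percentile of that table lay at 0.0032 to 0.0060 on the arrays, so its scaling is close to the main one. The steps behind it are not given in the sources used here.

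Log2 processed signal minus the 75th percentile of each array was averaged over spots of a probe. Spots with an outlier flag were left out of this mean, and probes with no unflagged spot on any single array (63) were dropped. Probes were named through their accession in the RefSeq table of GRCm38.p6 (26762 named, 28919 unnamed). A gene's brightest probe stood for it, if at least 3 arrays found the probe well above background. The comparison used limma 3.58.1 in R 4.3.3 (two-sided, Benjamini-Hochberg, threshold 0.05), and the code was tested on simulated data. Figures used Python 3.11.15 and matplotlib 3.10.9. The number of arrays limits the precision. Members, gene lists and tests were chosen with earlier results of these data known. All members are named with all probes, and of each other list the up to 3 genes with the smallest p over 6 arrays. For Hspa1a and Hsp90aa1 the rule also names the 3 genes nearest in profile, of which 1 is not reported here. Alternatives covered background correction, scaling, filters, probe choice, variance model, blocks and left-out arrays. The files have no mean spot signal, so normexp used median signals with an offset of 50.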

Additional observations from a re-analysis of the deposited data

How the results depend on the processing

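No heat shock gene was called by limma under any alternative, an adjusted p threshold of 0.1 over 6 arrays included, and no alternative over 6 arrays called any of the 14860 genes. Leaving out each array in turn gave 0 to 92 called genes, the 92 without water replicate 3, and the other 5 omissions 0 (556 to 1534 genes at an unadjusted p under 0.05). Without water replicate 3 limma called 39 genes with the array median subtracted, 92 with normexp correction, 215 with the replicate block, and 0 with quantile normalization or no filter on dim probes. In that fit with the replicate block every member had the same SE, 0.35, so the members were ranked by fold change alone. Same-numbered arrays did not deviate together (r = −0.015, 0.022 and −0.19 for numbers 2, 3 and 4), so the numbers were not treated as pairs, and with the replicate block over 6 arrays the member median stayed at −0.0025 with 0 genes called. The member median moved to −0.30 with the array median subtracted, which put all genes at −0.33. It ranged from −0.17 to 0.19 over left-out arrays. The single genes, none of them called, ranged over left-out arrays as follows: Hspa1a −0.40 to 1.31, Hspa8 −0.34 to 0.0061, Hsp90aa1 −0.077 to 0.52, Hsp90ab1 −0.17 to 0.20, Hsph1 −0.093 to 0.19, Dnajb1 −0.30 to 0.12, Hspb1 0.20 to 0.42, Hspd1 −0.30 to 0.094 and Hspe1 −0.25 to 0.24. Against the values over 6 arrays the sign also turned, without a call, with normexp correction (Hsp90aa1 −0.020, Hsph1 −0.086 and Hspe1 0.013), the array median (Hsp90aa1 −0.15, Hsph1 −0.27 and Hspb1 −0.023), the mean of a gene's probes (Hspa8 0.75) and the authors' table (Hsph1 −0.0053). It turned with the slide row as a block, and by the same values within slide row 2, which holds water replicate 4 as its single water array (Hspa1a −0.40, Hspa8 0.11, Hsp90ab1 0.34, Dnajb1 0.15, Hspd1 0.051 and Hspe1 0.28). Without water replicate 3 it turned with quantiles (Hspa1a −0.42, Hspd1 0.0043 and Hspe1 0.094), the array median (Hspa1a −0.53, Hsp90ab1 0.068 and Hspe1 0.11), no filter (Hspa1a −0.40, Hspa8 0.0061, Hsp90ab1 0.20, Dnajb1 0.12, Hspd1 0.094 and Hspe1 0.24), normexp (Hspa1a −0.41, Hsp90ab1 0.14, Dnajb1 0.15, Hspd1 0.065 and Hspe1 0.24) and the replicate block (Hspa1a −0.36, Hspa8 0.0011, Hsp90ab1 0.12, Dnajb1 0.12, Hspd1 0.094 and Hspe1 0.30). By probe, without that array, it turned for A_55_P2068459 at −0.40, A_55_P2069721 at 0.0061, A_55_P2080603 at 0.17, A_55_P2048434 at 0.20, A_55_P2003513 at −0.15, A_51_P153486 at 0.12, A_55_P1955587 at 0.094, A_55_P1953063 at 0.33 and A_66_P124952 at 0.24. The array median and the authors' table differ from the main scaling by a constant per array, so each moved all fold changes by the same amount. Without water replicate 3 the member values with no filter equal those with the filter, so the filter itself turned no sign there. For Hspa8 the mean of its probes took in A_52_P12877, at 2.44 over 6 arrays, beside −0.19 and −0.0097 for its other probes. The cause of the remaining turns was not tested.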

Other observations

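Probes of the same gene can disagree on water replicate 3, as those of Hspa8 and Hsph1 do. Of 3744 genes with several tested probes, 810 (21.6%) had probes whose deviation of water replicate 3 from the median of the other 5 arrays differed by more than 3 log2 units. The 3 probes of Hspe1 deviated by 0.73, 0.75 and 0.87 log2 units there. No probe sequence was used here, so which parts of the transcripts the probes read was not tested.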
